A study of Sus scrofa with 3 samples.

Results

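Collagen chain genes were taken as all gene symbols made of COL, a type number, A and a chain number. The rule found 43 genes among the 26466 symbols counted. It uses symbols alone and no measured value, although it was chosen with earlier results of these data known. They were grouped by the kind of assembly their chains form, as 11 fibrillar, 9 network-forming, 10 FACIT (fibril-associated collagens with interrupted triple helices), 4 beaded-filament and 4 transmembrane genes, with 5 genes of other kinds (the anchoring-fibril gene COL7A1, the multiplexins COL15A1 and COL18A1, and COL26A1 and COL28A1). COL6A1, the partner of COL6A2 and COL6A3 in type VI collagen, had no row under that symbol and was not analysed here.

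The study compared cells of pig (Sus scrofa) blood and bone marrow. It sequenced 1 library of mononuclear cells from peripheral blood (PBMC), 1 of mesenchymal stem cells derived from marrow (BM-MSC) and 1 of a population that the labels call bone marrow attached cell (BMAC). The labels give no animal, breed, age, passage, culture time or treatment for any of them, so it is unknown whether the populations share an animal. RNA was read with a 3′ end method (Lexogen QuantSeq), in which a transcript gives about 1 fragment whatever its length. Counts were therefore not scaled by length, and levels are counts per 1000000 counts of the library (CPM).

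Collagens are built from 3 chains wound into a triple helix and are the main proteins of connective tissue. Fibrillar chains form the load-bearing fibrils, FACIT chains sit on the fibril surface, network chains form sheets such as basement membranes, and type VI chains form beaded filaments around cells. In marrow, stromal cells, bone-forming cells and the cells of vessels are known collagen producers, whereas circulating lymphocytes and monocytes make little of the fibrillar kinds.

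The libraries held 15122997 (BMAC), 15445903 (PBMC) and 17069344 (BM-MSC) counts. The stromal markers PDGFRA, PDGFRB, THY1, NT5E, ENG, LUM and DCN all reached 10 CPM in BM-MSC and in BMAC, with summed levels of 950.6 and 1261 CPM against 59.7 CPM in PBMC, where 1 of the 7 reached 10 CPM. Of 9 leukocyte markers, 8 reached 10 CPM in PBMC (summed level 4858 CPM) and 0 did so in BM-MSC or BMAC (4.22 and 3.44 CPM). A further list of 5 monocyte and macrophage markers shares CSF1R and TYROBP with these. In that list 1 gene reached 10 CPM in BMAC, against 4 for PBMC and 0 for BM-MSC. The BMAC gene was CD14, which at 17.3 CPM (261 counts) stood above its levels of 12.95 CPM for PBMC and 3.63 CPM for BM-MSC. With 1 library per population no difference has a replicate check and no test between populations was possible. A gene was called higher in a library when log2((CPM + 1)/(CPM + 1)) was at least 2, which is 4-fold after the pseudocount, and the level on the higher side was 10 CPM or more; genes that met this level are called measured in that pair. Folds are CPM ratios without pseudocount, each followed by its 95% interval, which covers counting error alone. Where 3 values stand in a row without a library name, they are those of PBMC, BM-MSC and BMAC in that order.

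Of the 43 collagen genes, 42 had at least 1 count in PBMC, all 43 did in BM-MSC and 41 did in BMAC, but a level of 10 CPM was reached by 4 in PBMC, by 22 in BM-MSC and by 20 in BMAC. In the same order, 1, 14 and 11 genes reached 100 CPM. The 43 genes together took 0.0382% of the PBMC library (382 CPM), 1.80% of the BM-MSC library (17993 CPM) and 1.65% of the BMAC library (16527 CPM). The summed level was thus 47.1-fold (46.0 to 48.4) higher in BM-MSC than in PBMC and 43.3-fold (42.2 to 44.5) higher in BMAC. A single gene, COL19A1, held 56.9% of the collagen counts of PBMC, and without it the summed ratios were 109 (105 to 113) and 100 (96.2 to 104). BM-MSC and BMAC differed by 1.09-fold (1.08 to 1.09) in the sum, and among the 23 chains that reached 10 CPM in at least 1 of these libraries the ratio ran from 8.13-fold higher in BMAC (COL12A1) to 94.2-fold higher in BM-MSC (COL11A1).

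**Figure D1:**
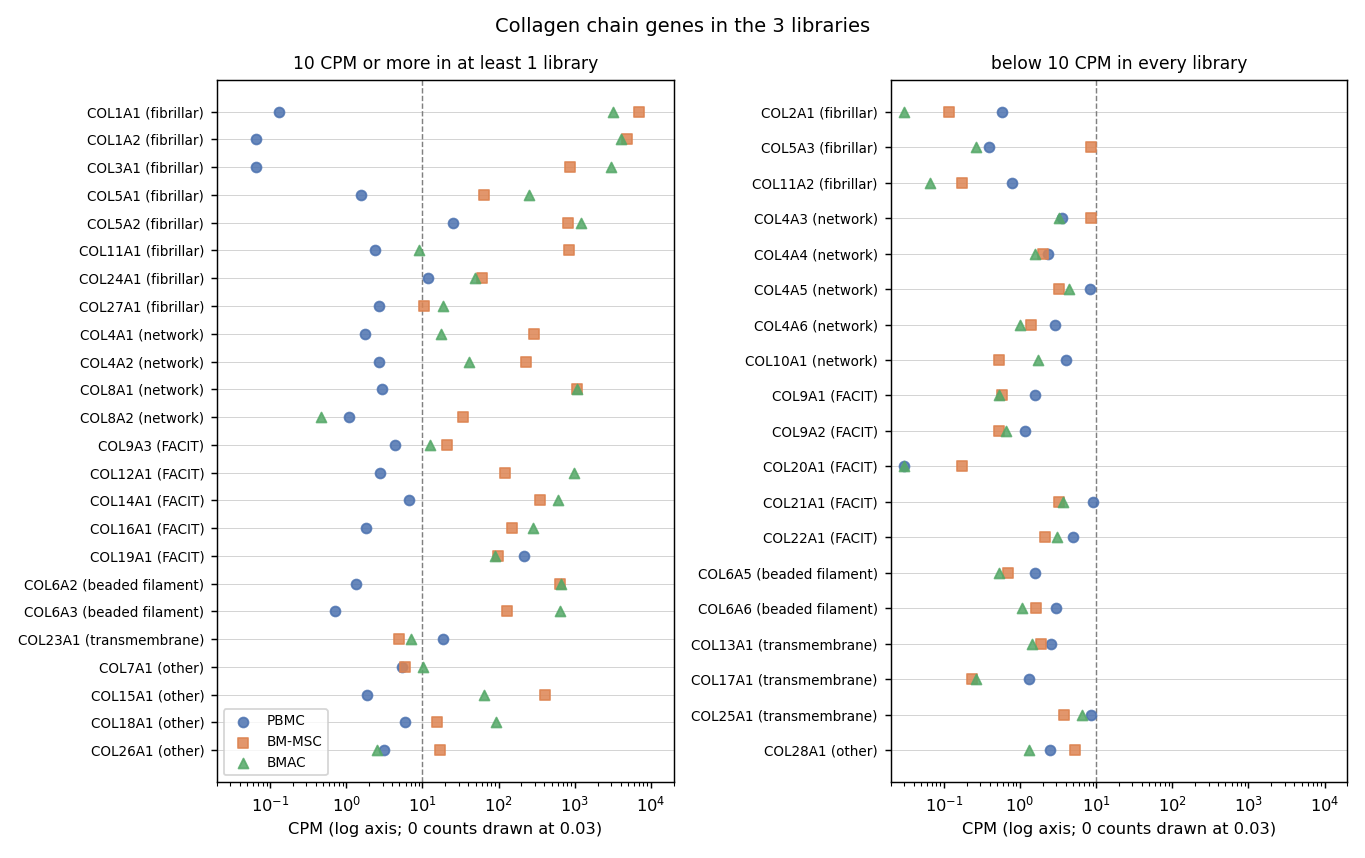
Level of each of the 43 collagen chain genes in PBMC (circles), BM-MSC (squares) and BMAC (triangles), in CPM on a log axis, with 1 library per symbol and the dashed line at 10 CPM. The genes of types I and III span the widest range, from under 1 CPM in PBMC to between 857.5 and 6893 CPM in the marrow libraries. COL19A1 and COL23A1 are highest in PBMC, as are 13 of the 16 genes whose highest level lies between 1 and 10 CPM.

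In BM-MSC against PBMC, 19 collagen genes were called towards BM-MSC and 0 towards PBMC, with 23 of the 43 measured. The same rule called 14.3% of all 11428 measured genes towards BM-MSC and 15.7% towards PBMC. In BMAC against PBMC, 16 collagen genes were called towards BMAC and 0 towards PBMC, with 21 measured, where 14.0% and 12.8% of 11371 genes were called. Most of these genes were measured through the marrow library alone (19 of 23 and 17 of 21), which favours a call towards it, so the counts describe the genes and support nothing further. Over all 43 genes the median log2 ratio was 1.23 in BM-MSC and -0.11 in BMAC, each against PBMC, beside -0.06 and -0.07 over all symbols. With TMM factors the collagen medians were 1.53 and 0. Nearest to the rule in BM-MSC were COL9A3 (log2 ratio 2.04) and COL26A1 (2.12) inside it and COL23A1 (-1.72) and COL27A1 (1.63) outside it, and in BMAC COL27A1 (2.42) and COL4A1 (2.77) inside and COL24A1 (1.99) and COL9A3 (1.31) outside. These comparisons share the PBMC library. The median of all measured genes was -0.16 in BM-MSC against PBMC and -0.12 in BMAC against PBMC. Scaling by TMM factors moved it to 0.23 and 0.21, and scaling by median-of-ratios factors to 0.26 and 0.22. The share of called genes of all kinds that were higher in BM-MSC than in PBMC went with it, from 47.6% to 58.5% (TMM) and 59.5% (median of ratios).

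Fibrillar genes held most of the collagen counts of the marrow cells, 79.8% (79.7 to 80.0, Wilson) in BM-MSC and 71.9% (71.7 to 72.1) in BMAC, against 11.98% (11.2 to 12.8) in PBMC. COL1A1 and COL1A2 encode the chains of type I collagen, the main fibril of bone, skin and tendon. COL1A1 stood at 0.130 CPM (2 counts) in PBMC against 6893 in BM-MSC and 3219 in BMAC, the 7th highest of all rows in BM-MSC and the 14th in BMAC. COL1A2 stood at 0.0647 CPM (1 count), 4804 CPM and 4120 CPM, and ranked 14th and 10th. Both were therefore all but undetected in PBMC and among the top rows of the marrow libraries, and the few counts in blood leave the size of the ratio wide. COL3A1, the type III chain of elastic tissues and early repair, had 1 count in PBMC (0.0647 CPM) and reached 857.5 CPM in BM-MSC and 3003 in BMAC. It was 13245-fold (2377 to 523181) higher in BM-MSC and 46384-fold (8325 to 1832100) higher in BMAC than in PBMC.

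COL5A1 and COL5A2, whose type V chains sit inside type I fibrils and limit their width, were also called towards each marrow library. COL5A2 stood at 815 CPM in BM-MSC and 1208 in BMAC, with 25.3 in PBMC, 32.2-fold (29.1 to 35.7) and 47.7-fold (43.2 to 52.9) above PBMC. Its 391 counts in PBMC are uncertain, because in the RefSeq table COL5A2 overlaps WDR75, which had 258 counts there, and the strand setting of the counting is not given in the sources used here. COL5A1 stood at 1.55 CPM, 63.9 CPM and 255 CPM, 41.1-fold (27.5 to 64.4) above PBMC in BM-MSC and 164-fold (110 to 256) in BMAC. COL5A3, the third type V chain, stayed under 10 CPM with 146 counts in BM-MSC, 6 in PBMC and 4 in BMAC.

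Of the minor fibrillar genes, COL24A1 stood at 11.7 CPM in PBMC against 61.4 in BM-MSC and 49.5 in BMAC. It was called in BM-MSC (log2 ratio 2.29) and lay just under the rule in BMAC (1.99), where it was called with TMM factors (2.25) and with median-of-ratios factors (2.26). With a pseudocount of 5 CPM the call in BM-MSC was lost (1.99). COL27A1, a cartilage fibril gene, stood at 2.72, 10.6 and 18.9 CPM and was called in BMAC (log2 ratio 2.42) but not in BM-MSC (1.63), and the call in BMAC was lost with a pseudocount of 5 CPM (1.63). In BM-MSC against BMAC both genes lay within the 4-fold rule, with log2 ratios of 0.30 for COL24A1 and -0.79 for COL27A1. No test of these differences was possible. COL2A1 and COL11A2, chains of cartilage fibrils, had 9 and 12 counts in PBMC, 2 and 3 in BM-MSC, and 0 and 1 in BMAC.

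COL11A1, which encodes a chain of type XI collagen, a fibril nucleator best known from cartilage, had the largest ratio between the marrow libraries among the collagen genes measured in that pair. It stood at 853 CPM in BM-MSC and 9.06 in BMAC, with 2.40 in PBMC. The level in BM-MSC was 356-fold (258 to 506) above PBMC and 94.2-fold (79.6 to 112) above BMAC. COL11A1 overlaps the unnamed row LOC110260367, which held 4, 9157 and 46 counts beside its own 37, 14559 and 137, so its value is uncertain in size, though both rows were highest in BM-MSC. Of the cartilage markers ACAN, SOX9, COMP and MATN3, 3 had a higher level in BM-MSC than in BMAC, as COL11A1 did. ACAN stood at 9.14 against 0.793 CPM, COMP at 5.27 against 0.793 CPM and MATN3 at 0.644 against 0.132 CPM (11 and 2 counts). SOX9, which alone of the 4 reached 10 CPM, stood the other way at 13.4 against 33.8 CPM, and was the largest term in the summed level, 28.5 CPM in BM-MSC against 35.5 in BMAC. In PBMC the sum was 3.04 CPM, with SOX9 and COMP at 0 counts. The part of cartilage cells in the COL11A1 value was not tested.

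**Figure D2:**
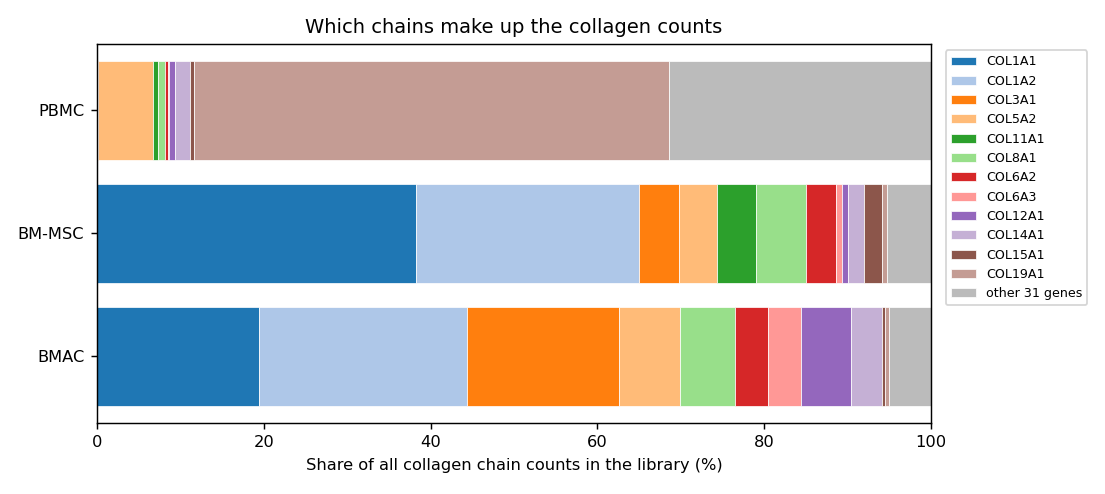
Share of all collagen chain counts held by 12 genes and by the other 31 together, in percent of the collagen counts of each library. COL19A1 holds 56.9% in PBMC, COL1A1 38.3% in BM-MSC and 19.5% in BMAC, and COL3A1 4.77% in BM-MSC and 18.2% in BMAC.

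Network-forming genes took 9.13% of the collagen counts in BM-MSC, 7.74% in PBMC and 6.95% in BMAC. COL8A1, a chain of the short-chain type VIII collagen found beneath endothelium and in vessel walls, led the class in both marrow libraries. It stood at 2.98 CPM in PBMC against 1073 in BM-MSC and 1078 in BMAC, 360-fold (270.0 to 492) and 362-fold (271 to 494) above PBMC. The interval of the ratio of BM-MSC to BMAC included 1 (0.996, 0.975 to 1.02), and the sign of its log2 value turned with the scaling. COL8A2, the other type VIII chain, did not share that pattern and stood at 1.10 CPM in PBMC, at 34.0 in BM-MSC and at 0.463 (7 counts) in BMAC. It was 73.4-fold (35.4 to 183) higher in BM-MSC than in BMAC.

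COL4A1 and COL4A2 encode the chains of the most widespread basement membrane collagen. COL4A1 stood at 1.75 CPM in PBMC against 292.5 in BM-MSC and 17.7 in BMAC, and COL4A2 at 2.72, 228 and 41.3 CPM. Both were higher in BM-MSC than in BMAC, by 16.5-fold (14.6 to 18.7) and 5.54-fold (5.09 to 6.04), and both were also called in BMAC against PBMC, by 10.1-fold (6.81 to 15.7) and 15.2-fold (11.1 to 21.3). With a pseudocount of 5 CPM the call of COL4A1 in BMAC against PBMC was lost (log2 ratio 1.75). The genes overlap each other in the RefSeq table. Whether the overlap takes in the 3′ ends that were read was not examined, so it is unknown whether reads of one were counted for the other. The remaining type IV genes, COL4A3 to COL4A6, whose chains serve specialised basement membranes such as that of the kidney glomerulus, and COL10A1, the gene of hypertrophic cartilage, stayed below 10 CPM in every library.

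Markers of vessel wall cells were set beside the type IV genes, which such cells are known to express. Of the smooth muscle and pericyte markers MYH11, ACTA2, DES and RGS5, 2 of 4 reached 10 CPM in BM-MSC and 1 in BMAC, with summed levels of 6590 and 159 CPM against 8.74 CPM in PBMC. ACTA2 stood at 6566 against 152 CPM and MYH11 at 23.2 against 5.55 CPM, whereas RGS5 stood at 0.762 against 1.12 CPM and DES had 1 and 0 counts. Of 5 endothelial markers 1, PECAM1, reached 10 CPM in either marrow library, at 15.2 and 27.7 CPM, with 9 and 4 counts of CDH5 and 1 and 0 of KDR. The summed endothelial level was 18.5 CPM in BM-MSC against 32.2 in BMAC, with 164 in PBMC. The part of these cells in the collagen values was not tested, and in bulk RNA fewer cells of a type and less RNA per cell cannot be told apart.

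FACIT genes took 65.5% (64.3 to 66.7) of the collagen counts in PBMC, 4.14% (4.07 to 4.21) in BM-MSC and 12.1% (11.9 to 12.2) in BMAC. COL12A1, which encodes a bridging collagen of tendon and of tissue under load, stood at 122 CPM in BM-MSC and 994 in BMAC, with 2.78 in PBMC. It was higher in BMAC than in BM-MSC by 8.13-fold (7.76 to 8.51). COL14A1, a fibril-surface collagen, stood at 6.73, 347.5 and 603 CPM, and COL16A1, a minor collagen of fibroblasts and muscle, at 1.81, 150.3 and 285 CPM. Both were called against PBMC in each marrow library, and their ratios of BMAC to BM-MSC, 1.74 (1.68 to 1.79) and 1.89 (1.80 to 1.99), were within the 4-fold rule. COL9A3, a type IX chain of cartilage, stood at 4.40, 21.3 and 12.4 CPM and was called in BM-MSC, just inside the rule (log2 ratio 2.04), a call that was lost with a pseudocount of 5 CPM (1.48). It overlaps TCFL5, which had more counts than COL9A3 in each library, and its partners COL9A1 and COL9A2 had 24 counts or fewer in every library.

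COL19A1, a rare FACIT gene, was the 1 collagen gene above 100 CPM in PBMC. It stood at 217 CPM in PBMC against 97.4 in BM-MSC and 90.0 in BMAC, 2.23-fold (2.10 to 2.37) and 2.41-fold (2.27 to 2.57) higher in PBMC, which is within the 4-fold rule. COL19A1 was thus present at a moderate level in all 3 libraries, unlike the leukocyte markers. MS4A1, a B cell gene, stood at 454 CPM in PBMC with 1 count in BM-MSC and 0 in BMAC, and CD3E, a T cell gene, at 203 CPM with 8 and 4 counts. The row that overlaps COL19A1 in the RefSeq table, LOC110260294, held 98, 11 and 12 counts against 3356, 1662 and 1361.

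Type VI genes were high in both marrow libraries and differed between them in 1 of the 2 measured chains. COL6A2 stood at 649 CPM in BM-MSC and 671 in BMAC, with 1.36 in PBMC, 477-fold (312 to 771.5) and 493-fold (322.5 to 797) above PBMC. Its ratio of BM-MSC to BMAC was 0.968 (0.942 to 0.994), and its sign turned with the scaling. COL6A3, the large chain of the same collagen, stood at 0.712 CPM, 129 CPM and 646 CPM, 5.02-fold (4.79 to 5.26) higher in BMAC than in BM-MSC. COL6A5 and COL6A6, chains that can take its place, had no more than 46 counts in any library.

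Transmembrane collagens, which span the cell membrane and carry collagen domains on the outside, were the 1 class whose summed level was highest in PBMC, at 31.0 CPM against 10.8 in BM-MSC and 15.3 in BMAC. Over the class the ratio was 2.88 (2.42 to 3.43) for PBMC over BM-MSC and 2.02 (1.73 to 2.38) for PBMC over BMAC. COL23A1 led it, with 18.5 CPM in PBMC against 4.92 in BM-MSC and 7.14 in BMAC. Its log2 ratios of -1.72 and -1.26 to PBMC were within the rule. COL25A1, a neuronal and muscle collagen, stood at 8.68, 3.75 and 6.48 CPM, COL13A1, found at cell junctions, at 2.59, 1.87 and 1.46 CPM, and COL17A1, the hemidesmosome collagen of skin, at 1.29 CPM in PBMC and 4 counts in each marrow library.

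Among genes of other kinds, the multiplexins of basement membrane zones differed between the marrow libraries in opposite directions. COL15A1 stood at 403 CPM in BM-MSC and 63.5 in BMAC, with 1.88 in PBMC, 6.34-fold (5.93 to 6.79) higher in BM-MSC than in BMAC. COL18A1, whose product releases the fragment endostatin, stood at 5.96, 15.3 and 92.5 CPM, 6.03-fold (5.28 to 6.90) higher in BMAC than in BM-MSC. COL26A1 stood at 3.11, 16.8 and 2.51 CPM, 6.69-fold (4.76 to 9.65) higher in BM-MSC than in BMAC. With a pseudocount of 5 CPM its call was lost against BMAC (log2 ratio 1.54) and in BM-MSC against PBMC (1.43). COL7A1 stood at 5.44, 5.98 and 10.1 CPM and was called in no comparison.

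In BM-MSC against BMAC 23 collagen genes were measured, 19 of them at 10 CPM or more in both libraries. Of these 23, 6 were higher in BM-MSC (COL11A1, COL8A2, COL4A1, COL26A1, COL15A1 and COL4A2) and 3 higher in BMAC (COL12A1, COL18A1 and COL6A3). Of all 10303 measured genes 2.90% were called towards BM-MSC and 3.21% towards BMAC. The median log2 ratio of the 23 genes was -0.01, beside -0.09 over all measured genes. By class, 3 of 4 network genes were higher in BM-MSC and 0 in BMAC. Of 8 fibrillar genes 1 was higher in BM-MSC and 0 in BMAC, of 5 FACIT genes 0 and 1, of 2 beaded-filament genes 0 and 1, and of 4 other genes 2 and 1. Without members that overlap another row with at least 25% of their count, COL11A1, COL4A1 and COL4A2 leave the list and 3 genes were higher in BM-MSC. Nearest to the rule were COL6A3 (log2 ratio -2.32) and COL26A1 (2.34) inside it and COL5A1 (-1.98) and COL3A1 (-1.81) outside it. In the sums, FACIT genes stood 2.67-fold (2.62 to 2.73) and beaded-filament genes 1.69-fold (1.65 to 1.73) above BM-MSC in BMAC, while fibrillar genes stood 1.21-fold (1.20 to 1.22), network genes 1.43-fold (1.40 to 1.46) and the other genes 2.63-fold (2.51 to 2.75) above BMAC in BM-MSC. Without COL19A1 the FACIT ratio was 2.94 (2.87 to 3.001).

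**Figure D3:**
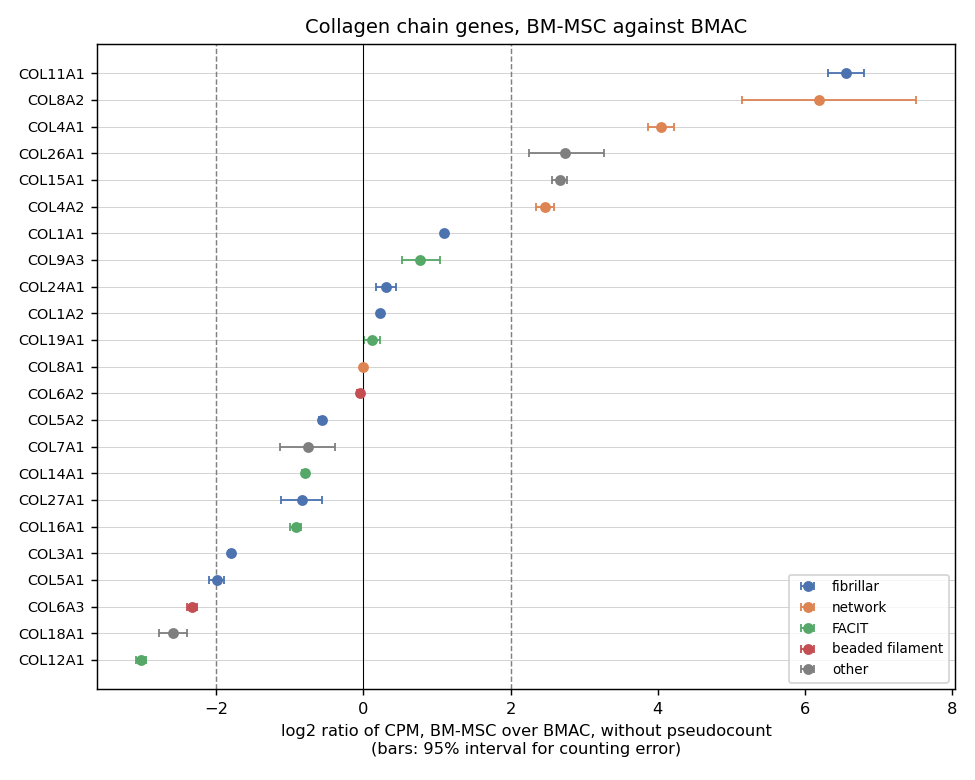
Log2 ratio of CPM without pseudocount, BM-MSC over BMAC, for the 23 collagen chain genes above 10 CPM in at least 1 of the libraries, coloured by class, with bars for the 95% counting interval and dashed lines at a size of 2. COL11A1, COL8A2 and COL4A1 lie farthest to the BM-MSC side, at 94.2-fold, 73.4-fold and 16.5-fold, and COL12A1 farthest to the BMAC side, at 8.13-fold.

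Chains of 1 collagen type can be built into the same molecule, so the ratio of partner genes was compared within each library, where library size cancels. No fixed ratio of partner chains was assumed. COL1A1 gave 1.43 counts (1.42 to 1.45) for each count of COL1A2 in BM-MSC and 0.781 (0.772 to 0.791) in BMAC, a ratio 1.84 times (1.81 to 1.86) as large in BM-MSC. COL4A1 to COL4A2 stood at 1.28 (1.23 to 1.335) in BM-MSC and 0.429 (0.371 to 0.496) in BMAC, 2.98 times (2.57 to 3.46) as large in BM-MSC. The ratios of COL5A1 to COL5A2 and of COL6A3 to COL6A2 lay the other way. COL5A1 to COL5A2 stood at 0.0783 (0.0736 to 0.0833) and 0.211 (0.204 to 0.218), 2.69 times (2.51 to 2.89) as large in BMAC, and COL6A3 to COL6A2 at 0.198 (0.189 to 0.207) and 0.963 (0.936 to 0.990), 4.86 times (4.60 to 5.12) as large in BMAC. Across types, COL3A1 gave 0.124 counts (0.122 to 0.127) per count of COL1A1 in BM-MSC and 0.933 (0.921 to 0.945) in BMAC, 7.498 times (7.34 to 7.66) as large in BMAC. The ratio of COL4A3 to COL4A4, both under 10 CPM and overlapping, was 2.13 times (1.15 to 3.94) as large in BM-MSC. For the low pair COL4A5 and COL4A6 the interval of the ratio between libraries spanned 1 (0.521, 0.249 to 1.09). Pairs with a chain under 10 counts in either marrow library were left out of this comparison. Among them, COL5A3 to COL5A2 stood at 0.0105 (0.00885 to 0.01235) in BM-MSC and 0.000219 (5.97e-05 to 0.000561) in BMAC. This type V ratio was larger in BM-MSC, and its BMAC value rests on 4 counts of COL5A3. COL8A1 to COL8A2 stood at 31.6 (29.1 to 34.4) and 2328 (1130 to 5792), with 7 counts of COL8A2 in BMAC. The absolute ratio of a pair depends on the match between annotated and used 3′ ends of each gene, a factor that is the same in both libraries as long as they use the same ends. How these ratios vary between replicates is unknown.

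**Figure D4:**
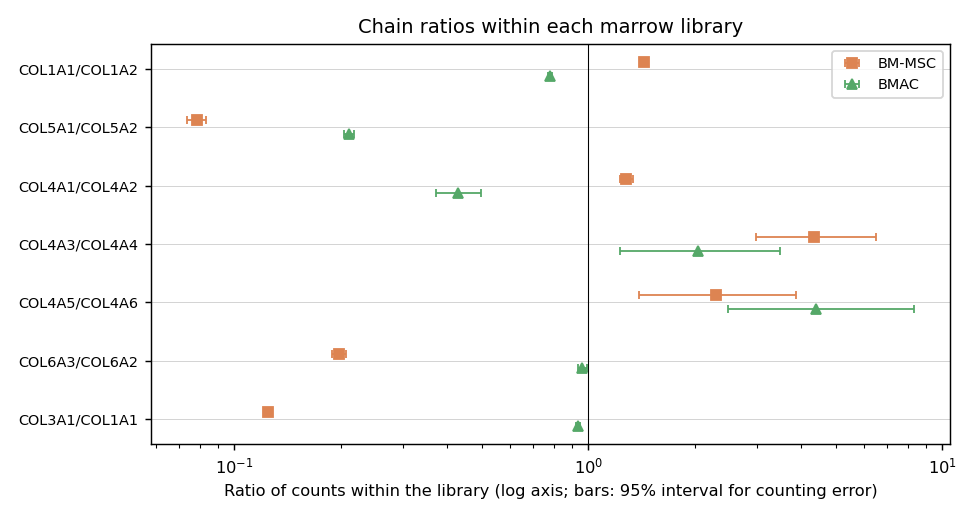
Ratio of counts of 7 pairs of chain genes within the BM-MSC library (squares) and the BMAC library (triangles), on a log axis with 95% counting intervals. The COL1A1/COL1A2 and COL4A1/COL4A2 ratios lie above 1 in BM-MSC and below 1 in BMAC, and COL6A3/COL6A2 and COL3A1/COL1A1 lie close to 1 in BMAC only.

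The remaining 19 collagen genes were below 10 CPM in every library: 3 fibrillar, 5 network, 5 FACIT, 2 beaded-filament and 3 transmembrane genes and COL28A1. The highest of them were COL21A1 (9.19 CPM in PBMC), COL25A1 (8.68 CPM in PBMC), COL4A3 (8.67 CPM in BM-MSC), COL5A3 (8.55 CPM in BM-MSC) and COL4A5 (8.22 CPM in PBMC). Of the 16 that reached 1 CPM in some library, 13 were highest in PBMC and 3 in BM-MSC (COL5A3, COL4A3 and COL28A1). Among all 6449 genes in the same range 56.3% were highest in PBMC and 23.3% in BM-MSC. The median level of the 16 was 2.72 CPM in PBMC against 1.93 in BM-MSC and 1.39 in BMAC, beside 2.27, 1.46 and 1.45 CPM over all genes in the range. COL20A1 had 3 counts in BM-MSC and 0 in the other libraries.

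Genes for collagen processing enzymes, collagen receptors and collagenases were described from a list of 44, of which LAIR1 had no row under that symbol. In BM-MSC against PBMC 25 of the 43 were called towards BM-MSC and 0 towards PBMC, with 33 measured, beside 14.3% and 15.7% of all measured genes. In BMAC against PBMC 30 were called towards BMAC and 0 towards PBMC, with 35 measured, beside 14.0% and 12.8%. Here too most of the measured genes, 22 of 33 and 24 of 35, reached 10 CPM through the marrow library alone. The median log2 ratio over the 43 was 2.80 and 3.65, beside -0.06 and -0.07 over all symbols. SERPINH1, the chaperone of procollagen in the endoplasmic reticulum, stood at 616 CPM in BM-MSC and 457 in BMAC, with 0.130 in PBMC. MMP14, a membrane collagenase, stood at 0.324, 360 and 395 CPM, LOXL2, a crosslinking oxidase, at 3.50, 386.5 and 954 CPM, and MMP2, a gelatinase, at 0.518, 159 and 110.0 CPM.

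Between the marrow libraries 0 of these genes were called towards BM-MSC and 2 towards BMAC, with 35 measured. These counts lie near the background, since 2.90% and 3.21% of all measured genes were called in the same directions. The median log2 ratio was -0.54 over the 43, beside 0 over all symbols. MMP1, the interstitial collagenase that cuts type I and III fibrils, stood at 1.41 CPM in BM-MSC against 144 in BMAC, 103-fold (68.8 to 161) higher in BMAC, and at 0.130 CPM in PBMC. LOXL4, another crosslinking oxidase, stood at 6.03 CPM in BM-MSC against 109 in BMAC, 18.0-fold (14.8 to 22.2) higher in BMAC. P4HA1, a subunit of the prolyl hydroxylase that stabilises the triple helix, was just outside the rule, at 108 against 427.5 CPM (log2 ratio -1.97), and overlaps NUDT13.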

How the data were processed

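The authors' deposited files hold whole-number counts per gene row, 1 library per population. Per the submitters' processing notes, Bowtie2 and bedtools were used, with no role stated. The strand of counting, the build and the annotation were not given in the sources used here. All 26965 rows were summed over 26466 symbols; each collagen symbol had 1 row. CPM, folds and exact conditional (Clopper-Pearson) 95% intervals were computed in Python 3.11.15 with scipy 1.17.1. Intervals of ratios between libraries of partner ratios are normal approximations on the log scale. Intervals cover counting error only. Reads carried no molecular identifiers here, so amplified copies of 1 fragment may be counted more than once. The intervals may then be too narrow even for counting error. The size rule needs at least 10 CPM and 10 counts. Alternative scalings came from edgeR 4.0.16 and DESeq2 1.42.0, used for size factors alone. Overlap and order of genes were taken from the gene start and end positions in the RefSeq table of Sscrofa11.1, which listed all 43 members. Whether an overlap takes in the 3′ end of a gene was not examined. Sequences of the members were not used here. All members with at least 10 CPM in a library are named, with the 5 highest below it and the 3 largest ratios of the processing list per comparison. Members, classes and lists were chosen with earlier results of these data known. The size rule was run on simulated counts that varied by counting error alone. In each comparison it called 0 of 100 genes given a 2-fold change and 100 of 100 given an 8-fold change. A 4-fold rule all but fixes that outcome, so the run checks the computation and not the variation between replicates.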

Additional observations from a re-analysis of the deposited data

How the results depend on the processing

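The sum of collagen CPM kept its direction under each scaling. BM-MSC over PBMC was 59.5 with TMM factors, 60.5 with median-of-ratios factors and 52.8 with totals that leave out ribosomal RNA rows, BMAC over PBMC 52.6, 53.0 and 46.3, and BM-MSC over BMAC 1.13, 1.14 and 1.14. With a 2-fold rule, which by construction calls more, COL19A1 and COL23A1 made 2 collagen genes higher in PBMC against BM-MSC, and the same 2 against BMAC, and 5 were higher in BMAC than in BM-MSC, with COL3A1 and COL5A1 added. Under that rule 1 processing gene was higher in PBMC than in BM-MSC, and 2 were higher in BM-MSC and 7 in BMAC when the marrow libraries were compared. Without overlapping rows 3 collagen genes were higher in BM-MSC than in BMAC. A pseudocount of 5 CPM ended the calls of COL24A1, COL26A1 and COL9A3 in BM-MSC against PBMC (16 left), of COL27A1 and COL4A1 in BMAC against PBMC (14 left) and of COL26A1 in BM-MSC against BMAC (5 left). A floor of 50 CPM, which by construction measures fewer genes, ended those of COL26A1, COL8A2 and COL9A3, of COL27A1, COL4A1 and COL4A2, and of COL26A1 and COL8A2 in the same comparisons. Leaving out overlapping rows removed COL11A1, COL4A1, COL4A2, COL5A2 and COL9A3 in BM-MSC and COL4A1, COL4A2 and COL5A2 in BMAC, each against PBMC. Calls were also gained. COL5A3 was added in BM-MSC against PBMC (20 called) and against BMAC (7 called) without ribosomal RNA rows, with a floor of 1 CPM and with no floor. COL24A1 was added in BMAC against PBMC without ribosomal RNA rows (log2 ratio 2.09) and with a pseudocount of 0.5 CPM (2.03), as with TMM and median-of-ratios factors. Of all alternatives of counts, sums and partner ratios, 123 stayed within 1.5 times the main count or within counting error. A further 16 did not, among them every rescaled sum. Some of the 123 could hardly have moved. The alternative for partner ratios only added 0.5 counts to each chain, and a count of 0 that stayed 0 was scored as unmoved. Of the alternatives for log2 ratios of single collagen genes, 282 stayed within counting error and 78 did not. No called collagen gene changed sign, but none could have done so. A pseudocount added to both sides keeps the sign, and the scalings moved the log2 ratios by far less than the 2 that a call needs. The number of low collagen genes highest in PBMC, an alternative added after seeing the data, was 12 with either set of factors and 13 without ribosomal RNA rows. No paired analysis was possible because each population has 1 library. In PBMC, 1 count is 0.0647 CPM, so folds for COL1A1, COL1A2 and COL3A1 rest on 1 or 2 counts there and their size is known only within their wide intervals.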

Other observations

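Some collagen genes lie next to each other in the pig RefSeq table, and their log2 ratios can be set side by side. COL3A1 and COL5A2 are adjacent, with ratios of -1.81 and -0.57 for BM-MSC against BMAC and of 11.46 and 5.52 for BMAC against PBMC. COL4A4 and COL4A3 overlap, with 0.21 and 1.19 for BM-MSC against BMAC, and COL4A6 and COL4A5 are adjacent, with 0.27 and -0.34. COL19A1 and COL9A1 are adjacent, with -1.15 and -0.69 for BM-MSC against PBMC, although COL9A1 had 24 counts in PBMC where COL19A1 had 3356.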
